A study of Homo sapiens with 24 samples.

Results

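Aurora A and the Polo-like kinases PLK1 and PLK4 were followed with the Aurora A cofactors TPX2 and BORA in LNCaP cells, an established human prostate cancer cell line, after siRNA knockdown of the long non-coding RNAs TAPIR-1 and TAPIR-2. These 5 genes, AURKA, TPX2, BORA, PLK1 and PLK4, were taken by name from 36561 genes that exceeded the background threshold at 24 h and 37644 at 48 h and not by a cutoff on their values. Cells received a scrambled control siRNA (si-SCRL), an siRNA against TAPIR-1 (si-A1) or an siRNA against TAPIR-2 (si-A2), 1 siRNA per target, and were sampled at 24 h and 48 h as 4 biological replicates per group. All groups shared the parental line, its serum-containing medium and the electroporation with siRNA. One-colour Agilent arrays were used, 1 for each sample and 24 in all, of which 23 were used because the si-A2 array of replicate 2 at 48 h was dim, with a median processed intensity of 13.9 against 20.4 to 32.2 on the other arrays at 48 h and 24.4 to 57.2 at 24 h. A different version of the array served each time point, so time point and array version cannot be told apart and no level is compared between them.

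Aurora A is a serine/threonine kinase of the centrosome and spindle poles that drives centrosome maturation, bipolar spindle assembly and mitotic entry. TPX2 binds Aurora A, activates it and carries it to spindle microtubules. BORA is the cytoplasmic cofactor with which Aurora A phosphorylates and switches on PLK1, the kinase that acts from mitotic entry through to cytokinesis. PLK4 works earlier and elsewhere, as the kinase that starts centriole duplication. Transcripts of these genes accumulate in cells passing through S phase, G2 and mitosis. In a bulk sample, fewer cycling cells and less RNA per cycling cell cannot be told apart.

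The arrays carried 6 probes for the 5 genes at each time point, 2 for PLK1 and 1 for each of the others, and the same 6 probes were on both versions. All 6 passed both filters at both time points. On the annotation of GRCh38.p14, AURKA lies on chromosome 20 from 56369390 to 56392215, TPX2 on chromosome 20 from 31739290 to 31801800, BORA on chromosome 13 from 72727923 to 72756196, PLK1 on chromosome 16 from 23678889 to 23690367 and PLK4 on chromosome 4 from 127880893 to 127899224. The part of each transcript that a probe covers was not mapped here. On the 48 h array the PLK1 probes carry Ensembl transcript names, and they were named through the RefSeq accession that the same probes carry on the 24 h array.

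Promoter sequence was taken from RefSeq (GRCh38.p14), whose table used here lists 5 start sites for 3 of the 5 genes, 1 each for PLK1 and BORA and 3 for PLK4. Windows of 300 bases, from 250 before to 50 after the start, were searched on both strands for the cell cycle homology region (CHR, the letters TTTGAA or TTTAAA), the CCAAT box (CCAAT) and the E2F site (TTTCCCGC, TTTCGCGC, TTTGCCGC or TTTGGCGC), elements known from promoters of cell cycle genes. Sequences are shown for the 3 listed genes. Of these, PLK1 and PLK4 were called lower after si-A1 at 48 h and BORA was not. AURKA and TPX2, also called lower there, are not listed. The first 2 sequences run from 190 to 1 bases before the start of PLK1 (chr16:23678699-23678888, plus strand) and BORA (chr13:72727733-72727922, plus strand), and the PLK4 sequence holds bases 21 to 50 after the first start of PLK4 (chr4:127880913-127880942, plus strand). Capitals mark the matches, which read ATTGG for CCAAT and TTCAAA for TTTGAA where the match is on the other strand.
PLK1: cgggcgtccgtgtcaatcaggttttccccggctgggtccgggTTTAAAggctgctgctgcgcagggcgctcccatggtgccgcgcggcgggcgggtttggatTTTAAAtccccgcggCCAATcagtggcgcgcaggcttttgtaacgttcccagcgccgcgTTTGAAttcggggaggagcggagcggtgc
BORA: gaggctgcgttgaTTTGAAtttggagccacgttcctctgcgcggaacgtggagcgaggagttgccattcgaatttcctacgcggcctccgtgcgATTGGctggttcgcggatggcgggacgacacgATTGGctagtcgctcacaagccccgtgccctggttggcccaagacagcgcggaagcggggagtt
PLK4: ggcaagcggcgggagattTTCAAAatggga

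PLK1 held TTTGAA at -29 to -24 from the start, TTTAAA at -148 to -143 and at -88 to -83, and CCAAT at -73 to -69. BORA held TTTGAA at -177 to -172 and CCAAT at -96 to -92 and at -64 to -60. PLK4 held TTTGAA on the minus strand at 39 to 44 after its first start, CCAAT at -86 to -82 of another start and none of these motifs at the remaining one. No window of the 3 genes held the E2F letters. Among all 35116 promoter windows of the same length, 15.2% held TTTGAA, 12.2% TTTAAA, 34.6% CCAAT and 3.31% the E2F letters. A match is a description of the letters, and occupancy was not measured on these arrays.

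**Figure D1:**
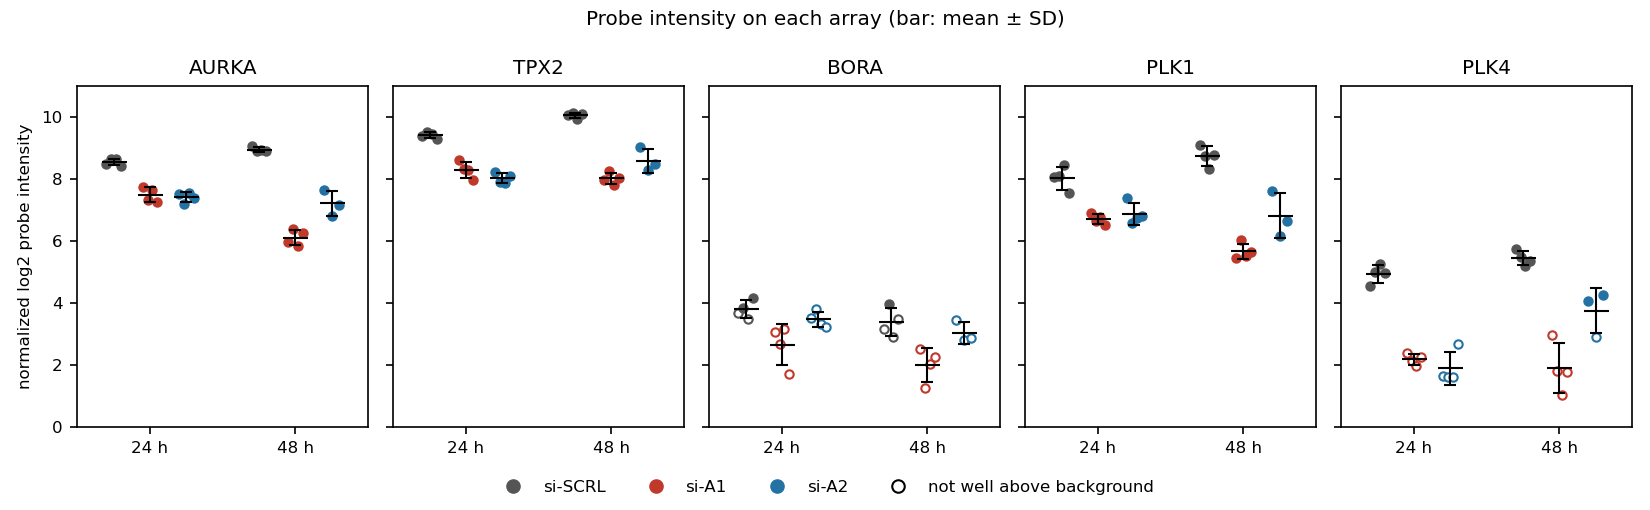
Normalized log2 probe intensity of AURKA, TPX2, BORA, PLK1 (brighter probe) and PLK4 on each array at 24 h and 48 h after si-SCRL, si-A1 or si-A2, with the mean ± SD of each group as black bars and open circles for arrays where the probe was not well above background. AURKA, TPX2, PLK1 and PLK4 lie below every si-SCRL array on each knockdown array of the same time point, and the PLK4 circles are open on all 8 knockdown arrays at 24 h. The share of all genes that separate in this way is not given here.

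AURKA was lower on every array of both knockdowns, and at 48 h its transcript fell 7.17-fold after si-A1 and 3.26-fold after si-A2. At 24 h, the normalized log2 intensity was 8.48, 8.63, 8.65 and 8.43 on the si-SCRL arrays, 7.73, 7.32, 7.65 and 7.27 after si-A1, and 7.52, 7.19, 7.55 and 7.39 after si-A2 (replicates 1 to 4). The knockdown arrays did not overlap with si-SCRL, and the knockdowns overlapped with each other. The log2 fold change was -1.05 ± 0.24 (SE) after si-A1 and -1.13 ± 0.24 after si-A2, about the same size, with adjusted p = 0.0314 and 0.0222 (limma, Benjamini-Hochberg over 15186 genes), so AURKA was not called at 24 h. A call required an adjusted p below 0.01 together with a log2 fold change of 0.5 or more in either direction.

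At 48 h, AURKA stood at 9.07, 8.89, 8.93 and 8.90 after si-SCRL, at 5.97, 6.38, 5.83 and 6.24 after si-A1, and at 7.64, 6.81 and 7.17 on the si-A2 arrays of replicates 1, 3 and 4. The 3 groups were separate, with si-A2 between the other two. AURKA fell by 2.84 ± 0.19 on the log2 scale after si-A1 (adjusted p = 6.05e-05). After si-A2 it fell by 1.71 ± 0.21 (adjusted p = 0.00919), a call that lay close to the threshold and did not survive when any of the 11 arrays was left out (adjusted p = 0.0183 to 0.0437) or with the replicate number as a block (adjusted p = 0.0304). In each of those fits at most 1 gene of all tested was called after si-A2.

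TPX2, the activator and spindle targeting factor of Aurora A, fell after si-A2 at both time points and after si-A1 at 48 h. At 24 h its normalized log2 intensity was 9.40, 9.52, 9.46 and 9.30 after si-SCRL, 8.60, 8.33, 8.29 and 7.96 after si-A1, and 8.21, 7.91, 7.87 and 8.09 after si-A2. Both knockdowns were below every control array. TPX2 fell by 1.40 ± 0.24 after si-A2 (2.64-fold, adjusted p = 0.00502), and its log2 fold change of -1.13 ± 0.24 after si-A1 was not called (adjusted p = 0.0194). The si-A2 call was lost on leaving out any single array except si-A1 replicate 4 (11 of the 12), with log2 fold changes of -1.45 to -1.32. Those 11 fits called 110 to 163 of all genes after si-A2, and the fit without si-A1 replicate 4 called 199.

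At 48 h, TPX2 read 10.05, 10.12, 9.95 and 10.10 after si-SCRL, 7.96, 8.26, 7.80 and 8.04 after si-A1, and 9.02, 8.28 and 8.47 after si-A2, with no overlap between the 3 groups. It fell by 2.04 ± 0.17 after si-A1 (4.12-fold, adjusted p = 8.76e-05) and by 1.43 ± 0.18 after si-A2 (2.69-fold, adjusted p = 0.00947). As for AURKA, the si-A2 call was lost when any single array of the 11 was left out (adjusted p = 0.0187 to 0.0437) and with the replicate number as a block (adjusted p = 0.0304). Each of those fits called at most 1 gene of all tested after si-A2.

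BORA, the cofactor of PLK1 activation, was not called in any comparison. Its probe was well above background on 2 of the 4 si-SCRL arrays at 24 h, on 1 of 4 at 48 h and on none of the knockdown arrays, so its level there is only a bound. At 24 h it read 3.66, 3.84, 3.48 and 4.16 after si-SCRL, 3.06, 2.67, 3.17 and 1.71 after si-A1, and 3.51, 3.8, 3.32 and 3.23 after si-A2. The si-A1 arrays lay below the controls and the si-A2 arrays overlapped with them. The log2 fold changes, -1.13 ± 0.33 with si-A1 and -0.32 ± 0.33 with si-A2, were not called (adjusted p = 0.1 and 0.757). Since the probe was well above background on only 2 of the 4 control arrays, no bound on a decrease is given.

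At 48 h, BORA read 3.14, 3.95, 2.91 and 3.47 after si-SCRL, 2.50, 1.24, 2.02 and 2.25 after si-A1, and 3.45, 2.79 and 2.85 after si-A2. Again the si-A1 arrays lay below the controls and the si-A2 arrays overlapped with them. The log2 fold change of -1.37 ± 0.32 after si-A1 was not called (adjusted p = 0.0165), nor was that of -0.31 ± 0.35 after si-A2 (adjusted p = 0.709, 95% interval -1.10 to 0.48). A decrease of 0.5 on the log2 scale lies within that interval, so BORA is not shown to be unaffected by si-A2.

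PLK1, the mitotic kinase that BORA and Aurora A activate, fell after si-A1 at 48 h, on both of its probes. On the brighter probe its normalized log2 intensity was 8.05, 8.08, 8.44 and 7.54 after si-SCRL at 24 h, 6.91, 6.65, 6.77 and 6.52 after si-A1, and 7.37, 6.57, 6.75 and 6.79 after si-A2. All 8 knockdown arrays lay below all 4 controls. Neither the log2 fold change of -1.31 ± 0.28 with si-A1 nor that of -1.16 ± 0.28 with si-A2 was called (adjusted p = 0.021 and 0.0443).

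At 48 h, PLK1 read 9.11, 8.74, 8.32 and 8.77 after si-SCRL, 5.46, 6.02, 5.51 and 5.64 after si-A1, and 7.60, 6.17 and 6.65 after si-A2. The si-A2 arrays lay between the other groups and spread over more than 1 log2 unit. PLK1 fell by 3.08 ± 0.25 after si-A1 (8.45-fold, adjusted p = 8.74e-05), and its log2 fold change of -1.85 ± 0.27 after si-A2 was not called (adjusted p = 0.0126). The dimmer PLK1 probe had the same direction in every comparison with si-SCRL, with log2 fold changes at 24 h of -1.09 ± 0.26 for si-A1 against -0.90 ± 0.26 for si-A2, and at 48 h of -2.44 ± 0.24 against -1.49 ± 0.26. Of these 4 changes, tested with every probe in the fit, only that after si-A1 at 48 h was called (adjusted p = 0.000181).

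PLK4, the kinase of centriole duplication, was the one gene of the 5 called at 24 h after both siRNAs. It read 4.53, 5.01, 5.24 and 4.96 after si-SCRL, 2.39, 2.11, 1.96 and 2.24 after si-A1, and 1.63, 1.62, 1.60 and 2.67 after si-A2. The probe was well above background on all 4 control arrays and on none of the 8 knockdown arrays, so only the controls have a measured level. PLK4 was at least 2.41-fold lower after si-A1 and at least 1.98-fold lower after si-A2. The fitted log2 fold changes were -2.76 ± 0.30 (adjusted p = 0.000278) and -3.06 ± 0.30 (adjusted p = 0.000106).

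At 48 h, PLK4 read 5.74, 5.47, 5.19 and 5.36 after si-SCRL, 2.97, 1.79, 1.02 and 1.77 after si-A1, and 4.07, 2.91 and 4.26 after si-A2. The si-A1 arrays were again not well above background, while 2 of the 3 si-A2 arrays (replicates 1 and 4) were. PLK4 was at least 4.7-fold lower after si-A1 (fitted log2 fold change -3.56 ± 0.36, adjusted p = 0.000222). The log2 fold change of -1.59 ± 0.39 after si-A2 was not called (adjusted p = 0.0616), although the 3 arrays lay below every control.

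Counted over the 5 genes, 1 was called lower after si-A1 at 24 h (PLK4), when 1.38% of all genes tested were called lower, and 2 after si-A2 (TPX2 and PLK4), also against 1.38%. At 48 h, 4 were called lower after si-A1 (all but BORA), against 6.30% of all genes, and 2 after si-A2 (AURKA and TPX2), against 0.189%. No gene of the 5 was called higher, against 0.0461% of all genes after si-A1 and 0.0329% after si-A2 at 24 h and 2.51% and 0.0459% at 48 h. The median log2 fold change of the 5 genes at 24 h was -1.13 for si-A1 against -1.16 for si-A2, and at 48 h -2.84 against -1.59, whereas the median over all genes above background lay between 0.01 and 0.06. Both knockdowns at a time point share the same si-SCRL arrays. With the dim si-A2 array of replicate 2 kept at 48 h, none of the 5 genes was called by limma after either siRNA, nor was any of 20618 genes, and the log2 fold changes after si-A1 were -2.86 for AURKA (adjusted p = 0.3), -2.09 for TPX2 (0.0434), -2.44 for PLK1 (0.0221) and -3.45 for PLK4 (0.0564).

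The number of calls at 24 h differed with the interquartile filter. The paper, whose methods state the same filter and thresholds, lists AURKA, TPX2 and PLK1 as regulated 24 h after TAPIR-1 knockdown. The fit with this filter did not call them here, and the cause of that difference was not tested. PLK4, which the paper lists too, was called after si-A1 at 24 h with and without the filter. When the filter on the interquartile range was left out and 36561 genes were tested, the fold changes were the same, the SE was smaller (0.15 against 0.24 for AURKA and 0.14 against 0.24 for TPX2, after either siRNA), and 4 of the 5 genes were called lower after si-A1 (all but BORA, with adjusted p = 0.00408 for AURKA, 0.00175 for TPX2 and 0.0097 for PLK1), against 0.955% of all genes. After si-A2, 3 were then called lower (AURKA with adjusted p = 0.00252, TPX2 and PLK4), against 0.829%. At 48 h, the same fit called the same 4 genes after si-A1, against 3.65%, and the same 2 after si-A2, against 0.377%. None was called higher in these fits, against 0.0738% and 0.0766% of all genes at 24 h and 2.16% and 0.0638% at 48 h.

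**Figure D2:**
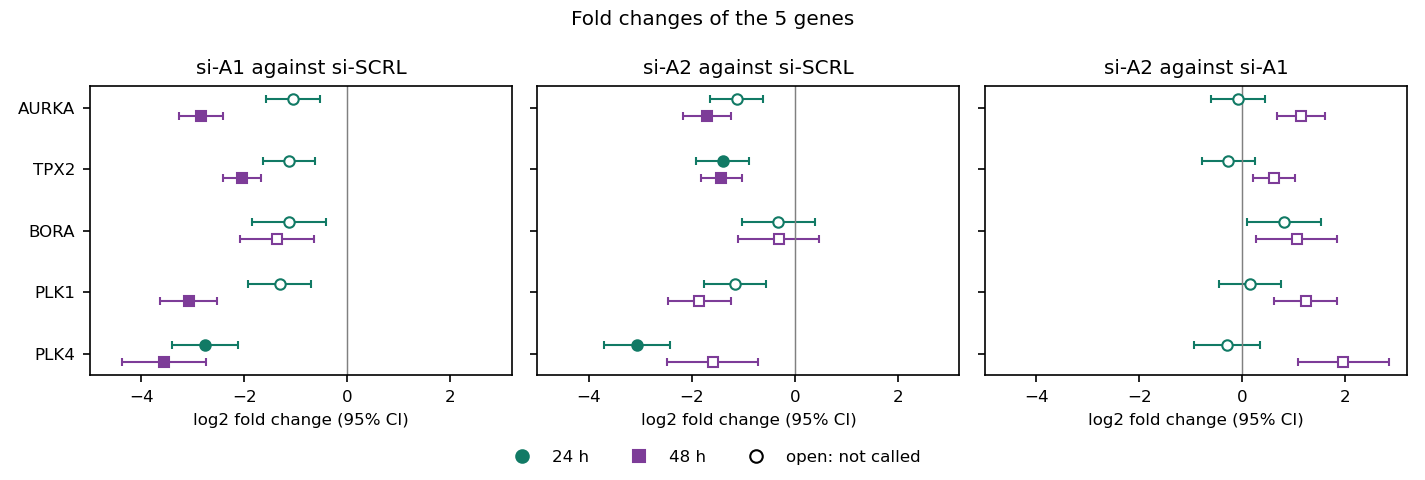
Log2 fold change with its 95% confidence interval (limma) for each gene in each comparison at 24 h (circles) and 48 h (squares), with filled symbols for called genes. In both comparisons with si-SCRL every estimate is negative, and in the comparison of si-A2 with si-A1 every 48 h estimate is positive, between 0.61 and 1.96.

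Each slide held all 3 siRNAs, and every difference from si-SCRL was negative on both slides. At 24 h the difference between si-A1 and si-SCRL on the 2 slides was -1.03 and -1.08 for AURKA, -1 and -1.26 for TPX2, -1.28 and -1.34 for PLK1 and -2.52 and -3 for PLK4, and between si-A2 and si-SCRL it was -1.20 and -1.07, -1.39 and -1.40, -1.09 and -1.22, and -3.15 and -2.97 in the same order. At 48 h the si-A1 differences were -2.81 and -2.88 for AURKA, -1.98 and -2.11 for TPX2, -3.19 and -2.97 for PLK1 and -3.23 and -3.88 for PLK4. The si-A2 differences at 48 h were -1.34 and -1.93 for AURKA, -1.07 and -1.65 for TPX2, -1.33 and -2.13 for PLK1 and -1.53 and -1.69 for PLK4, the first of each pair resting on 1 si-A2 array and being the smaller of the pair for each gene. BORA, near background, had si-A1 differences of -0.89 and -1.38 at 24 h and -1.67 and -1.06 at 48 h, and si-A2 differences of -0.09 and -0.55 at 24 h and -0.10 and -0.37 at 48 h.

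The siRNAs were also compared with each other, which asks whether the TAPIR-1 and TAPIR-2 knockdowns differ in these genes. At 24 h they were close, with log2 differences (si-A2 minus si-A1) of -0.08 ± 0.24 for AURKA, -0.27 ± 0.24 for TPX2 and 0.16 ± 0.28 for PLK1, whose 95% intervals ran from -0.60 to 0.44, from -0.78 to 0.24 and from -0.45 to 0.76. BORA read higher on all 4 si-A2 arrays than on any si-A1 array (difference 0.81 ± 0.33, adjusted p = 0.302). The BORA and PLK4 probes were well above background on no array of either knockdown. None of the 5 genes was called by limma, and BORA was the only one with an unadjusted p below 0.05 (0.0286), when 0.0395% of all genes were called lower and 0.0724% higher (0.104% and 0.205% without the interquartile filter, also with none of the 5 called).

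At 48 h, all 5 genes read higher with si-A2 than with si-A1, with no overlap between the arrays for AURKA, TPX2, BORA and PLK1, and for PLK4 with 1 si-A2 array (replicate 3, at 2.91) just below the highest si-A1 array (2.97). The share of all genes that separate in this way is not given here. The 5 genes also vary together over these arrays, so they are not separate observations. The log2 difference was 1.14 ± 0.21 for AURKA (adjusted p = 0.0143), 1.23 ± 0.27 for PLK1 (adjusted p = 0.0281), 1.96 ± 0.39 for PLK4 (adjusted p = 0.0205), 0.61 ± 0.18 for TPX2 (adjusted p = 0.0764) and 1.06 ± 0.35 for BORA (adjusted p = 0.11). The PLK4 probe was not well above background on si-A2 replicate 3 or on any si-A1 array, so no bound on its difference is given. None was called by limma at an adjusted p below 0.01, when 1.20% of all genes were called higher and 0.424% lower, and all 5 had an unadjusted p below 0.05, the largest being 0.014 for BORA, whose probe was well above background on none of these 7 arrays, so that its difference sets apart levels that were not measured. The share of all genes with an unadjusted p below 0.05 is not given here. Without the filter on the interquartile range, AURKA passed (adjusted p = 0.00994), against 0.927% of all genes called higher and 0.43% lower.

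Whether an effect changed between 24 h and 48 h was tested as an interaction over 30094 genes. The si-A1 effect on AURKA became larger, by -1.81 ± 0.22 on the log2 scale (95% interval -2.27 to -1.35, adjusted p = 0.00109), in a test that called 0.116% of all genes in this direction and 0.0631% in the other. PLK1 had the same estimate, -1.81 ± 0.32, and was not called (adjusted p = 0.0134), although it passed without si-SCRL replicate 3 at 24 h (adjusted p = 0.00541) or without si-A2 replicate 1 (0.00837) or 3 (0.00772) at 48 h. TPX2 changed by -0.84 ± 0.19 (adjusted p = 0.0473), short of the threshold.

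For PLK4 and BORA the change of the si-A1 effect was -0.15 ± 0.40 and 0.10 ± 0.42, between values that were not well above background on the si-A1 arrays at either time. The si-A2 effect did not pass for any gene. Its change was -0.57 ± 0.23 for AURKA (adjusted p = 0.592), -0.69 ± 0.34 for PLK1 (adjusted p = 0.701), 0.03 ± 0.20 for TPX2 (adjusted p = 0.986), 0.15 ± 0.44 for BORA (adjusted p = 0.966) and 1.82 ± 0.42 for PLK4 (adjusted p = 0.148). Unadjusted p was lowest for PLK4 (0.000403), followed by AURKA (0.0238). For PLK4 the si-A2 arrays were not well above background at 24 h, so the size of its change cannot be read. The test called 0.0432% of all genes as more positive and 0.00332% as more negative at 48 h.

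**Figure D3:**
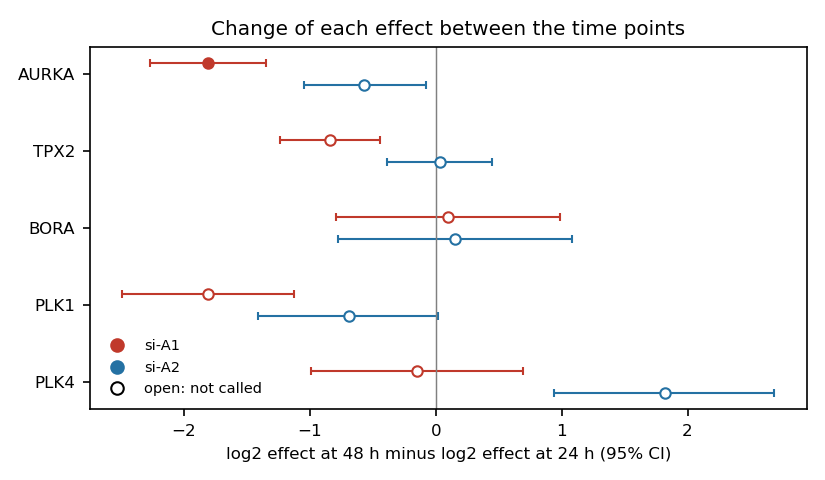
Change of the log2 effect from 24 h to 48 h (effect at 48 h minus effect at 24 h) with its 95% confidence interval for si-A1 and si-A2, filled where the adjusted p was below 0.01. AURKA after si-A1, at -1.81, is the only filled point, and PLK1 after si-A1 lies at the same value with a wider interval.

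Over the arrays, after subtraction of slide means, AURKA, TPX2 and PLK1 varied closely together. Their Pearson r over the 12 arrays at 24 h was 0.98 for AURKA and TPX2, 0.94 for AURKA and PLK1 and 0.91 for TPX2 and PLK1, and each pair reached 0.99 over the 11 arrays at 48 h. PLK4 correlated with these 3 genes at 0.89 to 0.97 at 24 h and 0.92 to 0.94 at 48 h, and BORA at 0.50 to 0.57 and 0.74 to 0.76. The arrays share the difference between control and knockdown, which such values mostly follow, so they are descriptions.

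By the same measure, the genes most like AURKA at 24 h were CDKN2C, TONSL and DLGAP5 (each 0.99), of which DLGAP5, a spindle protein, and CDKN2C kept a high value at 48 h (0.99 and 0.94) and TONSL did not (0.29). TPX2 was most like H2BC5, TOP2A and ARHGAP11B (each 0.99, with 0.98, 0.98 and 0.97 at 48 h), TOP2A being topoisomerase II alpha. PLK1 was most like SKA2, MCM7 and H4C8 (each 0.98, with 0.98, 0.97 and 0.98 at 48 h), of which SKA2 is a kinetochore protein and MCM7 a subunit of the replicative helicase. PLK4 was most like the histone genes H2BC17, H3C11 and H2BC9 (0.99, 0.99 and 0.98, with 0.95, 0.95 and 0.94 at 48 h). Replication-dependent histone genes have near-identical copies, so their probes may be shared between them. For BORA the likeness did not carry over, with MIA3 at 0.93 and -0.78, GPLD1 at 0.92 and 0.12, and RAD17 at 0.92 and 0.76.

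Of the other Aurora and Polo-like kinases, AURKB fell at 24 h and PLK2 rose after si-A1 at 48 h. AURKB, the kinase of the chromosomal passenger complex, averaged 7.83 ± 0.29 (log2 intensity, SD, n = 4) in si-SCRL cells at 24 h, 6.15 ± 0.22 after si-A1 and 6.10 ± 0.33 after si-A2, and was called lower after both (log2 fold changes -1.68 and -1.74, adjusted p = 0.00357 and 0.00265). At 48 h it stood at 8.37 ± 0.18, 7.60 ± 0.32 and 8.05 ± 0.57 (n = 4, 4 and 3), and its log2 fold changes of -0.77 and -0.38 were not called (adjusted p = 0.0441 and 0.483). PLK2, a Polo-like kinase induced by stress, stood at 7.08 ± 0.47 after si-SCRL and 8.51 ± 0.23 after si-A1 at 48 h and rose by 1.43 on the log2 scale (adjusted p = 0.00779), when 2.51% of all genes were called higher. It was at 7.27 ± 0.49 after si-A2 at 48 h (adjusted p = 0.852), and at 24 h its log2 fold changes were 0.02 and -0.23.

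AURKC, known from germ cells, did not vary enough to pass the interquartile filter. In the fit without that filter it was called higher after si-A1 at 48 h, by 0.71 ± 0.08 (adjusted p = 0.000829), when 2.16% of all genes were. PLK3 was not called in any comparison, with log2 fold changes against si-SCRL of 0.77 and 0.48 at 24 h and 0.01 and 0.08 at 48 h. The PLK5 probe was dim, with 1 of the 4 si-SCRL arrays well above background at 24 h and 3 of 4 at 48 h, and its log2 fold changes of -0.68 to 0.29 were not called.

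**Figure D4:**
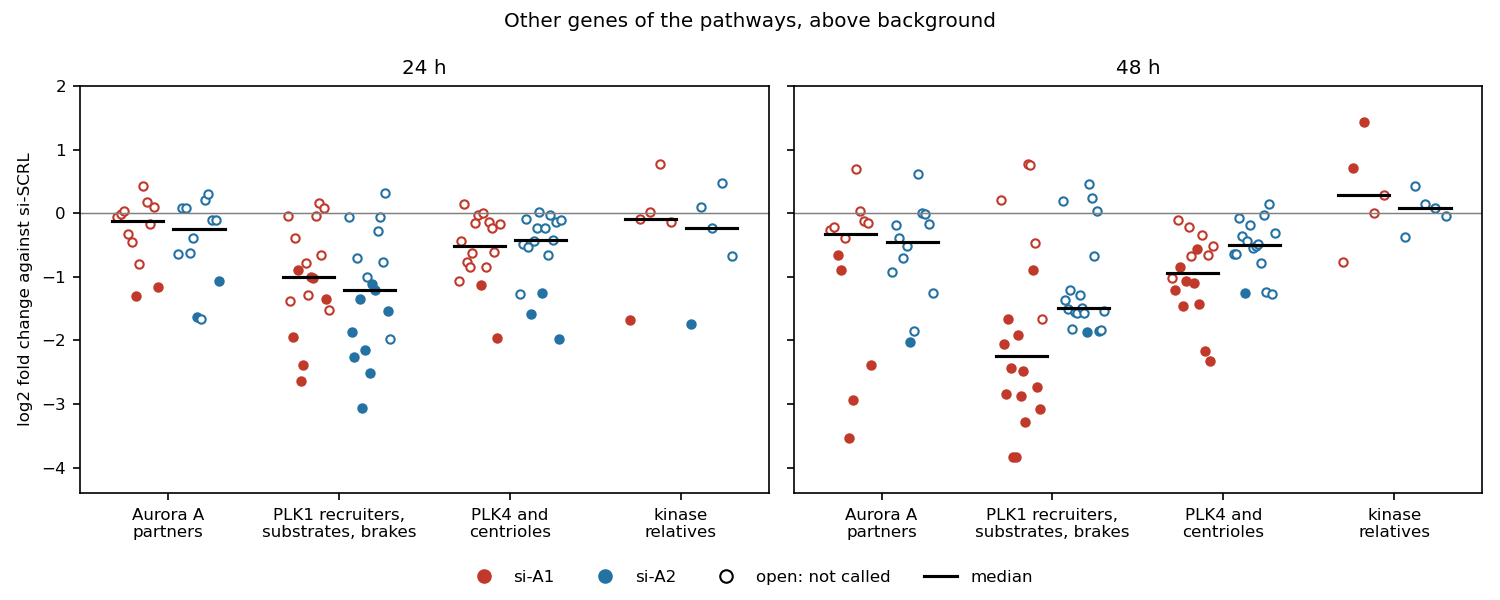
Log2 fold change against si-SCRL for the genes of the 4 lists above background at 24 h and 48 h, 1 circle per gene, filled where called in the fit without the interquartile filter, with the median of each list as a black bar. The PLK1 list sits lowest, with medians at 24 h of -1.01 for si-A1 against -1.20 for si-A2, and at 48 h of -2.24 against -1.50.

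Among genes around Aurora A (12 genes, all above background, chosen by known partnership), few were called. After si-A1 at 24 h none of the 6 that passed the interquartile filter was called, and after si-A2 only GTSE1, a microtubule protein that binds TACC3 and Aurora A, fell (-1.63 ± 0.26, adjusted p = 0.00299). Each siRNA lowered 1.38% of all genes tested at 24 h. At 48 h, 4 of 7 fell after si-A1, against 6.30% of all genes, namely GTSE1 (-3.54 ± 0.27), HMMR, the spindle receptor RHAMM (-2.93 ± 0.47), TACC3 (-2.38 ± 0.23) and its microtubule polymerase partner CKAP5 (-0.89 ± 0.14), with adjusted p of 7.19e-05, 0.0029, 0.000161 and 0.00229, and none of 7 was called after si-A2 (limma, adjusted p below 0.01), when 0.189% of all genes were called lower. Over all 12 genes, 7 had an unadjusted p below 0.05 after si-A2 at 48 h. The share of all genes below 0.05 is not given here, so this count has no background to be read against. The median log2 fold change of the 12 was -0.11 and -0.25 at 24 h and -0.33 and -0.45 at 48 h, against 0.01 to 0.06 for all genes.

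Among recruiters, substrates and brakes of PLK1, more genes were called after si-A2 than after si-A1 at 24 h, and the reverse at 48 h, a difference of counts that was not tested. Of 18 genes, 14 passed the interquartile filter at 24 h, and 3 of them fell after si-A1 and 7 after si-A2, when 1.38% of all genes tested fell after each. CENPU, the centromere receptor of PLK1, fell by 2.64 ± 0.31 and 3.06 ± 0.31, CEP55, which PLK1 holds back from the midbody, by 2.39 ± 0.28 and 2.15 ± 0.28, and BUB1B, the checkpoint kinase BUBR1, by 1.94 ± 0.26 and 2.26 ± 0.26 (after si-A1 and si-A2). FBXO5, the inhibitor of the anaphase-promoting complex that PLK1 marks for destruction, fell by 2.52 ± 0.31 after si-A2 (adjusted p = 0.000535) and had a log2 fold change of -1.28 ± 0.31 after si-A1 (adjusted p = 0.0453). FOXM1 is among the 18 genes, so the list includes a transcription factor upstream as well as partners of the kinase.

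At 48 h, 13 of 16 fell after si-A1 and 2 of 16 after si-A2, against 6.30% and 0.189% of all genes. CENPU and CEP55 each fell by 3.84 after si-A1 (SE 0.24 and 0.28), KIF20A, the cytokinesis kinesin that docks PLK1, by 3.29 ± 0.22, and RACGAP1, which anchors ECT2 at the midzone, by 3.08 ± 0.33, with adjusted p of 6.05e-05, 7.04e-05, 6.05e-05 and 0.000288. After si-A2, KIF20A fell by 1.87 ± 0.24 (adjusted p = 0.00947), and with the replicate number as a block no gene of all 17447 tested was called. CENPU, CEP55 and RACGAP1 had log2 fold changes of -1.56, -1.57 and -1.83 that were not called (adjusted p = 0.0185, 0.0285 and 0.0285). No gene of the list was called higher.

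Of 16 genes of PLK4 and centriole duplication, 9 passed the interquartile filter at 24 h, and 1 fell after si-A1 and 2 after si-A2, against 1.38% of all genes after each. STIL, the PLK4 substrate that builds the cartwheel with SASS6, fell by 1.97 ± 0.26 and 1.98 ± 0.26 (adjusted p = 0.000851 and 0.000704). CEP152, a scaffold that brings PLK4 to the parent centriole, fell by 1.59 ± 0.24 after si-A2 (adjusted p = 0.00219) and had a log2 fold change of -0.85 ± 0.24 after si-A1 (adjusted p = 0.0855). SASS6 had log2 fold changes of -0.23 and -0.42 at 24 h (adjusted p = 0.859 and 0.714), on another probe than the one that stood for it at 48 h.

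At 48 h, 8 of 12 fell after si-A1, against 6.30% of all genes, among them STIL by 2.32 ± 0.20, SASS6 by 2.17 ± 0.23, CEP152 by 1.46 ± 0.16 and the centriole protein POC1A by 1.43 ± 0.17 (adjusted p of 0.000113, 0.000254, 0.000375 and 0.000601). None of the 12 was called after si-A2 by limma, when 0.189% of all genes were called lower. There CEP152 came closest of these 4 (-1.25 ± 0.18, adjusted p = 0.0124), and 10 of all 16 had an unadjusted p below 0.05. The share of all genes below 0.05 is not given here. The median over the 16 genes was -0.52 and -0.42 at 24 h and -0.94 and -0.49 at 48 h.

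Leaving out the interquartile filter gave other counts for these lists. For the Aurora A list they were 2 and 2 of 12 at 24 h and 5 and 1 of 12 at 48 h (after si-A1 and si-A2), for the PLK1 list 7 and 9 of 17 at 24 h and 13 and 2 of 18 at 48 h, and for the PLK4 list 2 and 3 of 16 at 24 h and 9 and 1 of 16 at 48 h, all lower. Of all genes, 0.955% and 0.829% were called lower at 24 h and 3.65% and 0.377% at 48 h.

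As checks on the series, all 10 LNCaP and luminal prostate markers were well above background on every array at both time points. So were markers of other cell types, namely KRT15 of the basal list, ENO2 of the neuroendocrine list and CDH5 and VWF of the endothelial list. All matched genes of the leukocyte list were too, with CD68 matched at 24 h only. A gene counted through its best probe, and some PTPRC probes were well above background on no array at 24 h. KRT5 of the basal list, CHGA of the neuroendocrine list and COL1A2 and LUM of the fibroblast list were well above background on no array. DCN and PDGFRB of the fibroblast list were well above background on every array at 48 h, and PDGFRB on none at 24 h. The part of such cells or of probe background in the results was not tested, and no gene of the leukocyte, endothelial, fibroblast, basal or neuroendocrine lists was called in any comparison. Of the prostate markers, KLK2 and SLC45A3 fell after si-A1 at 48 h (by 1.07 and 1.31), although a dimmer KLK2 probe read 9.34 ± 0.54 in si-SCRL and 9.72 ± 0.48 in si-A1 cells (n = 4 each). Of 12 housekeeping genes, none passed the test in the fit with the interquartile filter, and without it TFRC was called lower after si-A2 at both times and PGK1 after si-A1 at 48 h. The TAPIR-2 probe present on both versions read 5.04 ± 0.20 (SD, n = 4) after si-SCRL and 4.06 ± 0.74 (n = 4) after si-A2 at 24 h (adjusted p = 0.253), and 4.64 ± 0.58 (n = 4) and 4.68 ± 0.90 (n = 3) at 48 h (adjusted p = 0.75), so a decrease of TAPIR-2 did not pass the test here. A second TAPIR-2 probe at 48 h was well above background on no array (log2 fold change -0.78, adjusted p = 0.406, with si-A1 and -0.59, adjusted p = 0.67, with si-A2). TAPIR-1 could be matched to no probe, and the groups rest on their labels.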

How the data were processed

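RNA of LNCaP cells was labelled with Cy3 and hybridised to one-colour Agilent whole-genome arrays, of a different version at each time point. The authors deposited Agilent Feature Extraction 11.5.1.1 output, whose processed signal is a linear intensity after background subtraction within the array, beside the median intensity of each spot and its local background. They also deposited log2 values, quantile-normalized by the authors within a time point. The submitters' processing notes name R 3.4.3, limma 3.34.8 and build hg38. Log2 processed intensities were quantile-normalized within a time point, outlier spots and control spots were left out, and spots of a probe were averaged. A probe had to exceed the mean plus 3 SDs of 308 negative control spots on 3 or more arrays and to vary with an interquartile range of 0.5 or above, and the brightest such probe stood for its gene (15186 genes at 24 h, 17447 at 48 h). Of the 50599 and 58201 probes, 57.4% and 53.4% were named through their own RefSeq accession (GRCh38.p14), 1109 and 246 through the accession of the same probe on the other array version, and the others kept the design's name.

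All 3 groups of a time point were fitted with limma 3.58.1 in R 4.3.3 (statmod 1.5.0, package data.table, version 1.17.8), with the slide, read from the scanner output, as an additive term, after the study's methods. Adjusted p-values are Benjamini-Hochberg. The interaction used probes shared by both versions and above the threshold at both times, normalized together over 23 arrays, without the interquartile filter. A bound ("at least") sets the brighter group's mean against the lowest signal rated well above background on each array of the dim group, or the probe's own value where higher. None of the spots was rated as saturated. The number of arrays and the signal over background limit the precision, and no depth applies. Scripts were tested on simulated data.

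The genes, lists and naming rule were chosen with earlier results of these data known. In the lists, all kinase relatives were named, and up to 4 called genes per list and time with the largest fold changes. FOXM1, the cell type markers, TFRC and PGK1 were named after their values were seen. Deviations from group means of arrays with the same replicate number correlated at 0.19 to 0.35 in all 10 pairs at 48 h (-0.27 to -0.03 after slide means were subtracted) and at -0.15 to 0.19 in 12 pairs at 24 h. The main fits at both time points used the slide and did not pair samples by these numbers. The replicate number as a block was run as an alternative at both. Alternatives covered scaling, background correction, the authors' values, slide, replicate number, samples, filters, probe rule, thresholds and each array left out.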

Additional observations from a re-analysis of the deposited data

Results flagged for a closer look

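PLK4 on the si-A2 array of replicate 4 at 24 h stood apart from its group, at a normalized log2 intensity of 2.67 against 1.60 to 1.63 on the other 3 arrays. It was 1 of 30 sets of 4 arrays examined for a sample far from the others, of which chance sets apart about 1 in 20, and none of the 4 arrays had this probe well above background.

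The si-A1 effect on AURKA differed between the time points, by -1.81 on the log2 scale (48 h minus 24 h) in the test of the difference itself. Time point and array version cannot be told apart.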

How the results depend on the processing

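No value of a called gene changed sign under any alternative run. The counts are of the 5 genes called. After si-A1 at 24 h (1 called), 4 were called without the interquartile filter, with the filter on probes well above background or at an adjusted p below 0.05. There 376 of 36561, 405 of 7841 and 443 of 15186 genes were called in either direction. With neither filter 3 were called, against 401 of 40997 genes. With normexp or no background correction the 3 called were AURKA, TPX2 and PLK1, against 516 of 1577 and 513 of 1574 genes. PLK4, the gene called in the main fit, was not among the genes tested at 24 h under these corrections. After si-A2 at 24 h (2 called), 4 were called at an adjusted p below 0.05, against 429 of 15186 genes, and 1 with the replicate number as a block or with only the groups compared. The block called 141 of 15186 genes, and the fit with only the groups compared called 92. After si-A1 at 48 h (4 called), 0 were called with si-A2 replicate 2 kept, when no gene of 20618 passed in limma. After si-A2 at 48 h (2 called), 0 were called with the replicate block, with 75th percentile scaling, without the slide term, with only the groups compared or with replicate 2 kept, and 4 with normexp or no background correction. Of all genes, normexp called 424 of 2876 and no background correction 526 of 3707. Scaling to the 75th percentile called 28 of 18455. The replicate block, the fit without the slide term and that with only the groups compared called none of 17447 genes, and that with replicate 2 kept none of 20618. For si-A2 against si-A1 at 48 h (0 called), 3 were called with normexp, with no background correction or at an adjusted p below 0.05, 2 with the filter on probes well above background and 1 without the interquartile filter. In the same order, 577 of 2876, 762 of 3707, 1197 of 17447, 726 of 11899 and 511 of 37644 genes were called. For the change of the si-A1 effect (1 called), 3 were called with normexp or at an adjusted p below 0.05, 2 with no background correction and 0 with replicate 2 kept. The first 3 of these settings called 154 of 28717, 226 of 30094 and 143 of 28713 genes, and the last called none of 31111. When single arrays were left out, the counts ranged from 1 to 1 (si-A1) and 1 to 2 (si-A2) at 24 h, 4 to 4 and 0 to 0 at 48 h, 0 to 0 for si-A2 against si-A1 and 1 to 2 for the change of the si-A1 effect. Over all genes, those fits called 87 to 164 (si-A1) and 110 to 199 (si-A2) at 24 h. At 48 h they called 761 to 1501 and 0 to 1. For si-A2 against si-A1 they called 0 to 19 at 24 h and 0 to 209 at 48 h, and for the change 8 to 77. The replicate block changed no other count of the 5 genes. The causes were not tested. Fewer genes were tested with normexp (1577 against 15186 at 24 h). Of the values of single genes, 1004 kept their side of the threshold, 53 passed it and 50 no longer did.

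The normexp and uncorrected settings used the median signal of each spot in place of the mean signal that was planned. With normexp, PLK4 at 48 h had log2 fold changes of -0.73 after si-A1 and -0.53 after si-A2. Signal over background limits BORA throughout and PLK4 after knockdown, and 3 si-A2 arrays limit the 48 h comparison.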
